A study of Drosophila melanogaster with 14 samples.

Results

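The ELAV family of Drosophila melanogaster consists of the RNA-binding protein genes elav, fne and Rbp9. The 3 genes were chosen by name and FlyBase identifier, out of 15490 genes listed in at least 1 of 3 expression tables, and each was listed in all 3 tables and passed the filter on low values there. ELAV proteins bind U-rich stretches of RNA through RNA recognition motifs and set splice and polyadenylation choices of neuronal transcripts. Elav is nuclear, is made in nearly all postmitotic neurons of the fly and is a standard marker of them. Fne, named "found in neurons", is a neuronal paralog of Elav, and Rbp9 acts in the adult nervous system and also in the ovary. Vertebrate Hu proteins are their relatives. Because these genes are used as neuronal markers, their level in RNA from whole brains or heads is often read as a gauge of how much of the RNA came from neurons. In such bulk RNA, fewer neurons and less RNA per neuron cannot be told apart.

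Poly(A) RNA was sequenced in 14 libraries, 2 for each of 7 groups of flies, with about 50 flies labelled as adult males of 5 to 7 days behind each library. The APP table held flies with both the elav-Gal4 driver and a UAS-APP transgene (amyloid precursor protein), flies with the elav-Gal4 driver alone and flies with UAS-APP alone, the last in a w background. The Shal495 table held Shal495 flies, a line named for the potassium channel gene Shal, and w1118 flies. The TrpA1 table held flies with elav-Gal4 and UAS-TrpA1 (a heat-activated cation channel) and flies with UAS-TrpA1 alone in a w background. The elav-Gal4 driver takes its expression pattern from the regulatory DNA of elav itself, and the labels give neither its allele nor its insertion site. Whether the driver's insertion changes the fragments counted for elav in the 3 groups that carry it was not tested. The sample labels name brains and the series description names heads. Replicate 2 of Shal495 carries that name in its title but Shal496 as its genotype. Whether the paired libraries of a group were separate collections is not stated, and p-values therefore reflect the spread between the libraries at hand, which may be technical.

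Values were FPKM, which correct fragment counts for gene length and library size, so that levels could be compared between genes within a library. Between 17162942 and 19911318 fragments stood behind a library, a total worked out from the tables, and 3 counts, the floor used here, come to 0.151 to 0.175 FPKM in a gene 1 kb long. Some libraries went against their labels. A list of 22 gut genes, mostly digestive enzymes of the midgut, took 0.227% of summed FPKM in each elav-Gal4 UAS-APP library, against 9.89% and 10.1% in elav-Gal4 and 4.89% and 5.03% in UAS-APP. The same list, with 21 genes in the TrpA1 table, took 0.342% and 0.237% in Shal495 against 0.419% and 0.298% in w1118, and 0.997% and 1.04% in elav-Gal4 UAS-TrpA1 against 1.19% and 1.21% in UAS-TrpA1. Yp2, a yolk protein gene made mainly in females, averaged 0.478 FPKM in elav-Gal4 UAS-APP against 148 FPKM in elav-Gal4 and 0.298 FPKM in UAS-APP, 332 FPKM in Shal495 against 1.00 FPKM in w1118, and 0.193 FPKM in elav-Gal4 UAS-TrpA1 against 399 FPKM in UAS-TrpA1. The gut and Yp2 levels marked both libraries of a group alike, so no comparison with elav-Gal4, UAS-APP, Shal495 or UAS-TrpA1 could be given without them.

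On the BDGP6 assembly, elav (FBgn0260400) lies on the minus strand of chromosome X from 509235 to 523226, fne (FBgn0086675) on the plus strand of X from 12917477 to 12950417, and Rbp9 (FBgn0010263) on the plus strand of chromosome 2L from 2954762 to 2968434. The annotation lists 4 transcripts for elav, 11 for fne and 9 for Rbp9, and the lengths at which FPKM gave whole fragments were 10715, 9516 and 8054 bases. For elav and Rbp9 that length was the union of the annotated exons, whereas for fne the union was 9561 bases. No strand marking is stated, and fragments from overlapping genes cannot be assigned with certainty. The antisense gene arg overlaps 673 exonic bases of elav, 6.28% of the elav exons, and arg itself stood between 0.209 and 0.920 FPKM in all libraries. A non-coding RNA on the same strand, lncRNA:enrr, lies with all of its 2994 exonic bases inside elav exons, 27.9% of them, and its own fragments were not analysed here. Rbp9 shares 142 exonic bases, 1.76% of its exons, with the thymidylate synthase gene Ts, and no annotated exon of another gene overlaps those of fne.

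Rbp9 was the most abundant member in every library. It made up 76.8% to 90.6% of the summed FPKM of the 3 genes, and stood above 78.1% to 97.1% of all listed genes of a library. The levels of elav were above 48.0% to 76.8% of the listed genes, which placed this marker near the middle of the range of all genes in the libraries where it was lowest. The tables share no group, so the order of levels over all 7 groups is a description. Elav was highest in elav-Gal4 UAS-APP at 20.5 ± 0.212 FPKM (mean ± SD, n = 2 in every group), then 11.7 ± 0.0110 in w1118, 11.2 ± 0.298 in Shal495, 8.39 ± 2.49 in UAS-APP, 5.13 ± 0.279 in elav-Gal4 UAS-TrpA1, 4.87 ± 0.159 in UAS-TrpA1 and 2.32 ± 0.132 in elav-Gal4. The elav libraries of elav-Gal4 UAS-TrpA1 and UAS-TrpA1 overlapped, and the other neighbours in this order did not. The driver groups thus held both ends of the order.

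Fne averaged 24.3 ± 0.100 FPKM in elav-Gal4 UAS-APP, 18.2 ± 2.31 in Shal495, 17.7 ± 0.643 in w1118, 9.35 ± 0.680 in UAS-APP, 4.53 ± 0.239 in UAS-TrpA1, 3.82 ± 0.212 in elav-Gal4 UAS-TrpA1 and 1.36 ± 0.192 in elav-Gal4. Its Shal495 and w1118 libraries overlapped, and no other neighbours did. Rbp9 averaged 149.8 ± 2.24 FPKM in elav-Gal4 UAS-APP, 115 ± 2.40 in Shal495, 109 ± 8.12 in w1118, 87.4 ± 0.893 in UAS-TrpA1, 84.0 ± 0.207 in elav-Gal4 UAS-TrpA1, 70.5 ± 15.7 in UAS-APP and 16.7 ± 0.295 in elav-Gal4. For Rbp9 too, the Shal495 and w1118 libraries were the overlapping neighbours. All 3 members had their highest group mean in elav-Gal4 UAS-APP and their lowest in elav-Gal4.

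**Figure D1:**
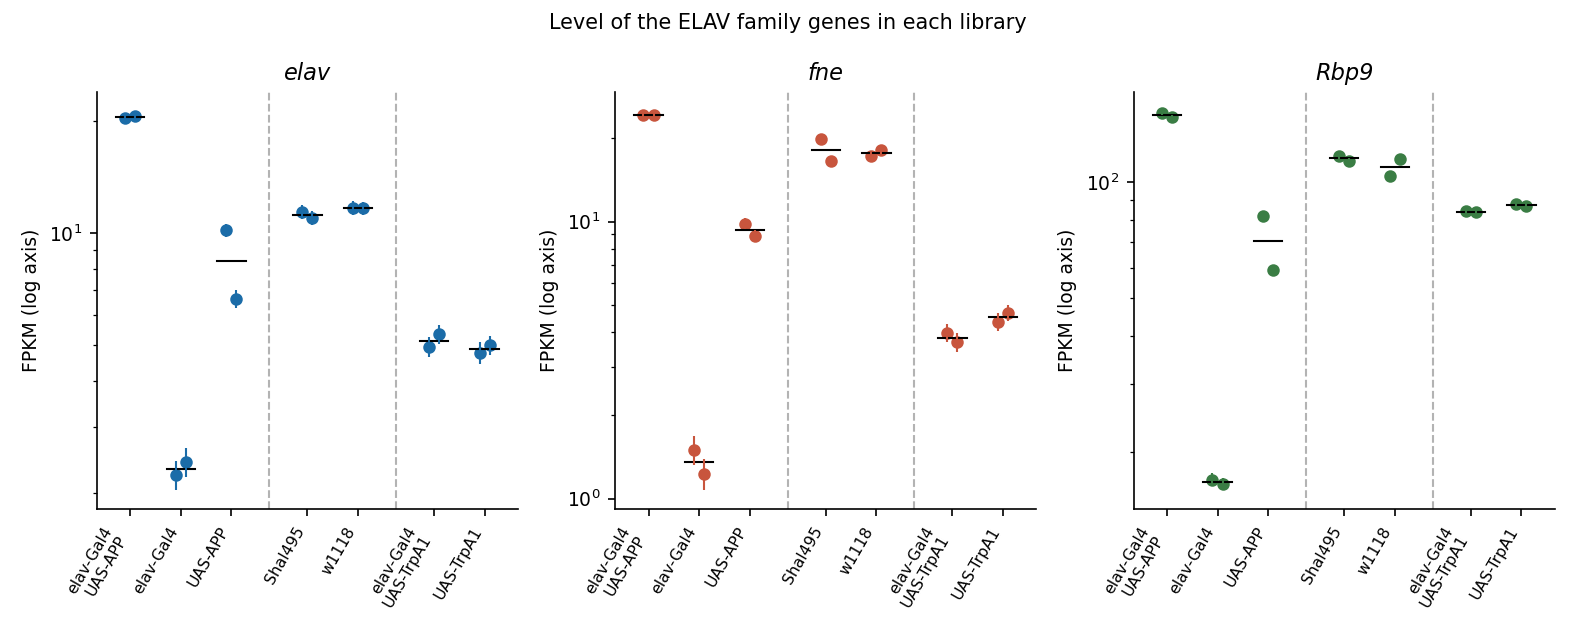
FPKM of elav, fne and Rbp9 (log axes, each with its own range) in the 2 libraries of each group, with dashed lines between the tables, which share no group. Points are libraries, vertical bars are exact Poisson 95% intervals of the fragment count, which cover counting error only, and black lines are group means; the elav-Gal4 libraries sit lowest in each panel, at 2.22 and 2.41 FPKM for elav.

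In the APP table, the flies with both driver and transgene had much more of all 3 transcripts than flies with the driver alone. Elav stood at 20.3 and 20.6 FPKM in elav-Gal4 UAS-APP, from 4072 and 4161 fragments, against 2.22 and 2.41 FPKM in elav-Gal4, from 459 and 508 fragments. Fne stood at 24.4 and 24.2 FPKM, from 4335 and 4340 fragments, against 1.50 and 1.22 FPKM in elav-Gal4, from 274 and 229 fragments. The libraries of each group lay close together and the groups did not overlap for either gene. Counting error alone was widest for fne in elav-Gal4, where exact Poisson 95% intervals ran from 1.32 to 1.68 and from 1.07 to 1.39 FPKM. Rbp9 stood at 151 and 148 FPKM in elav-Gal4 UAS-APP against 16.9 and 16.5 FPKM in elav-Gal4.

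All 3 members passed the threshold in this comparison as higher in elav-Gal4 UAS-APP (limma on log2(FPKM + 1), Benjamini-Hochberg adjusted p under 0.05 over 9866 tested genes). The background was high, with 84.0% of all tested genes called, 56.5% as higher and 27.5% as lower, so the call itself separates the members little from other genes. The size of the difference placed them further out. Fne rose by 3.42 ± 0.094 on the log2 scale (SE, adjusted p = 1.10e-07), more than 98.4% of tested genes, and its mean FPKM was 17.9 times that of elav-Gal4. Rbp9 rose by 3.09 ± 0.132 (adjusted p = 5.96e-07), more than 96.8% of tested genes, a ratio of mean FPKM of 8.98. Elav rose by 2.69 ± 0.166 (adjusted p = 3.38e-06), more than 94.0% of tested genes, a ratio of 8.83. The pseudocount of 1 makes the log2 difference smaller than the FPKM ratio, most for fne, the least abundant member in elav-Gal4, and also for elav. With voom, the limma method for counts, on recovered fragments, the differences were 4.17 for fne, 3.17 for Rbp9 and 3.14 for elav. The gap between elav and Rbp9 thus depended on the pseudocount.

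All tested genes together had a median log2 difference of 0.43 here, and less that median the differences were 3.0 for fne, 2.66 for Rbp9 and 2.27 for elav. The 95% interval of the fne difference, 3.20 to 3.65, did not overlap that of elav, 2.30 to 3.09, and the difference between the genes was not tested. Over all genes, 5578 were called higher and 2713 lower. With median centring the split was 3555 higher and 4516 lower, with quantile normalization 4068 and 3953, and with FPKM rescaled to the same sum in each library (TPM scale) 7239 and 1615. Under each of these scalings the 3 members stayed higher with adjusted p under 0.05.

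Against flies with UAS-APP alone, the members were again higher, by less. Elav stood at 20.3 and 20.6 FPKM in elav-Gal4 UAS-APP against 10.1 and 6.63 FPKM in UAS-APP. Fne stood at 24.4 and 24.2 FPKM against 9.83 and 8.87 FPKM in UAS-APP. Rbp9 stood at 151 and 148 FPKM against 81.6 and 59.4 FPKM in UAS-APP. No library of UAS-APP reached those of elav-Gal4 UAS-APP. The UAS-APP libraries had a coefficient of variation of 29.6% for elav and 22.3% for Rbp9, the widest of the table for these genes, and of 7.27% for fne, against 14.1% for fne in elav-Gal4. All 3 genes were lower in UAS-APP replicate 2.

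All 3 passed as higher, where 76.7% of tested genes were called, 46.1% as higher and 30.7% as lower. Fne rose by 1.29 ± 0.094 (adjusted p = 1.54e-05), a ratio of mean FPKM of 2.60. Elav rose by 1.22 ± 0.166 (adjusted p = 0.000356), a ratio of 2.44, and Rbp9 by 1.09 ± 0.132 (adjusted p = 0.000193), a ratio of 2.12. The 95% intervals, 1.07 to 1.51 for fne, 0.83 to 1.61 for elav and 0.78 to 1.41 for Rbp9, overlapped one another. Less the median of all tested genes, 0.17, the differences were 1.12, 1.05 and 0.92 for fne, elav and Rbp9. The members were above 84.1% to 88.7% of tested genes. Over all genes 4546 were called higher and 3026 lower. With median centring that split was 3476 and 4140, and on the TPM scale 6340 and 1704.

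The elav-Gal4 flies also had less of all 3 transcripts than the UAS-APP flies, although neither group carries both transgenes. Elav stood at 2.22 and 2.41 FPKM in elav-Gal4 against 10.1 and 6.63 FPKM in UAS-APP, fne at 1.50 and 1.22 against 9.83 and 8.87 FPKM, and Rbp9 at 16.9 and 16.5 against 81.6 and 59.4 FPKM. The groups did not overlap for any member. All 3 passed as lower in elav-Gal4, where 66.3% of tested genes were called, 16.2% as higher and 50.2% as lower. Fne fell by 2.13 on the log2 scale (SE 0.094, adjusted p = 6.00e-06), Rbp9 fell by 2.00 (SE 0.132, adjusted p = 3.23e-05) and elav fell by 1.48 (SE 0.166, adjusted p = 0.000279). Less the median of -0.27, the differences were -1.86 for fne, -1.73 for Rbp9 and -1.21 for elav. Only 0.912%, 1.19% and 3.37% of tested genes had a more negative difference than fne, Rbp9 and elav. Over all genes 1594 were called higher and 4951 lower, and with median centring 2931 and 2370. The 3 comparisons within the APP table share libraries and are therefore not independent of each other.

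Other neuronal genes moved with the family in the APP table. A list of 23 pan-neuronal genes, mainly synaptic proteins and channels, had all 23 genes tested and 23 called higher in elav-Gal4 UAS-APP flies than in elav-Gal4, with a median log2 difference of 3.56 against 0.43 for all tested genes. The synaptic vesicle protein gene nSyb averaged 394 FPKM in elav-Gal4 UAS-APP against 19.0 FPKM in elav-Gal4, and rose by 4.31 ± 0.11 (adjusted p = 8.96e-08). The active zone small GTPase gene Rab3 rose by 3.86 (adjusted p = 1.33e-07), Rdl, a GABA receptor subunit gene, by 4.05 (adjusted p = 1.68e-07), and Appl, the fly homologue of APP, by 3.98 (adjusted p = 1.86e-07). The vesicle fusion ATPase gene comt rose by 3.51 and the neurexin gene Nrx-1 by 3.60. Of the 23 genes, 22 had a larger difference than elav, 19 a larger one than Rbp9 and 14 a larger one than fne. For fne this order depended on the scale: 6 of 23 were larger with a pseudocount of 0.1 and 4 of 20 with voom on recovered fragments.

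The same list had 23 genes higher in elav-Gal4 UAS-APP flies than in UAS-APP, with a median log2 difference of 1.96. Rdl rose by 2.66, brp, the active zone scaffold Bruchpilot, by 2.52, and comt by 2.22 (adjusted p = 2.54e-06, 4.70e-06 and 1.85e-06). Here 22 of 23 list genes had a larger difference than each of elav, fne and Rbp9. Over the other scalings and the pseudocount of 0.1 the count was 21 to 23 of 23, and with voom 18 or 19 of 20. Median centring cannot change this count, since it shifts all genes of a comparison alike. In elav-Gal4 against UAS-APP, all 23 list genes were lower, with a median of -1.56, and 22 with median centring. The vesicle protein gene Syn fell by 2.13 (adjusted p = 2.62e-05) and Snap25, a SNARE gene, by 2.43 (adjusted p = 3.17e-05). In that comparison 21 list genes lay above fne, 20 above Rbp9 and 10 above elav. Fne was thus among the more lowered and elav near the middle. For Rbp9 the place depended on the scale. With a pseudocount of 0.1, 18 of 23 list genes lay above Rbp9. With voom, 14 of 20 lay above Rbp9, against 20 above fne and 11 above elav.

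**Figure D2:**
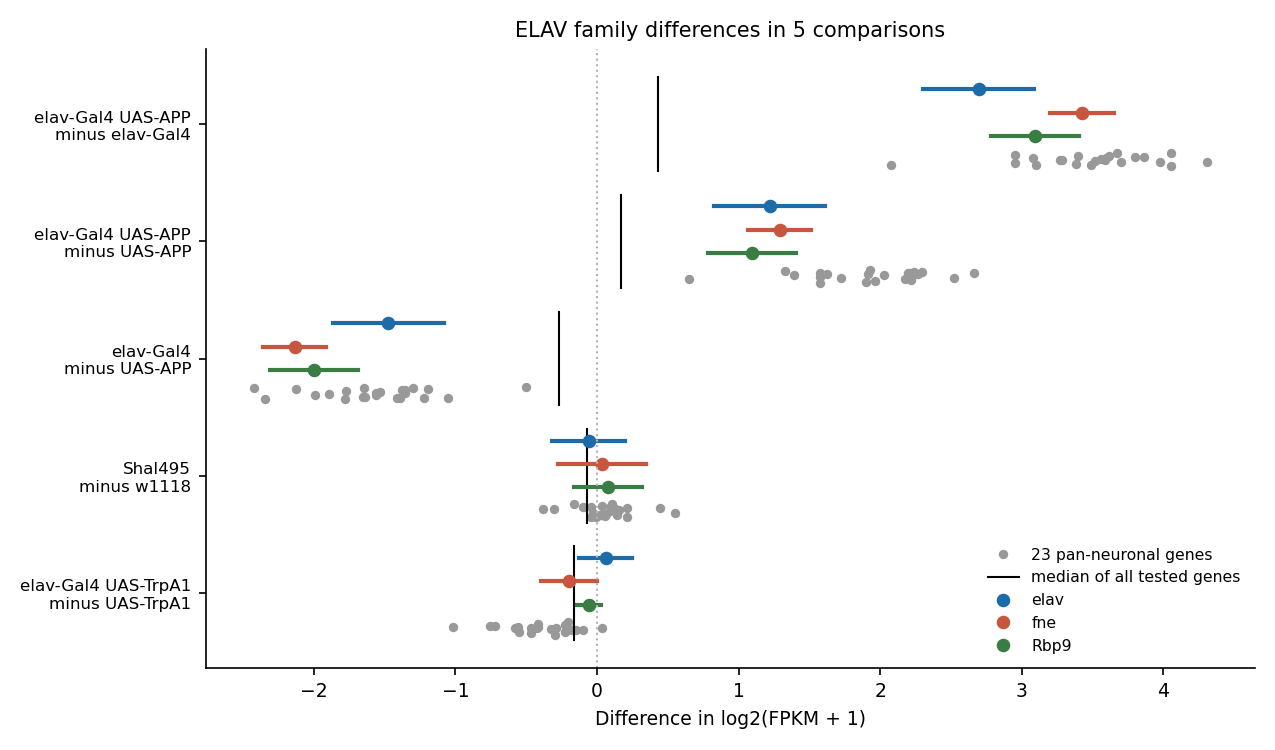
Differences in log2(FPKM + 1) of elav, fne and Rbp9 in 5 comparisons, with bars for 95% intervals, beside the 23 pan-neuronal genes (grey points) and the median of all tested genes (black line). Elav, fne and Rbp9 lie below 22 of the 23 grey points in elav-Gal4 UAS-APP minus UAS-APP, and elav lies above all 23 in elav-Gal4 UAS-TrpA1 minus UAS-TrpA1.

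The summed FPKM of the 23 pan-neuronal genes was 2535 and 2508 in elav-Gal4 UAS-APP, against 201 and 200.4 in elav-Gal4 and 902 and 659 in UAS-APP. Set against that sum, the members varied less than in FPKM. There were 8.02 and 8.22 FPKM of elav per 1000 FPKM of the list in elav-Gal4 UAS-APP, against 11.1 and 12.0 in elav-Gal4 and 11.2 and 10.1 in UAS-APP. For Rbp9 the figures were 59.7 and 59.1 in elav-Gal4 UAS-APP, against 84.0 and 82.2 in elav-Gal4 and 90.5 and 90.1 in UAS-APP. Both members were thus lower in elav-Gal4 UAS-APP, relative to the list, than in any library of the controls. Fne was at 9.61 and 9.66 in elav-Gal4 UAS-APP, against 7.44 and 6.11 in elav-Gal4 and 10.9 and 13.5 in UAS-APP, an intermediate position. These ratios are descriptions, given without a test, and the sum gives most weight to the abundant list genes.

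Markers of other cell types moved in the same libraries. Of 21 tested gut genes, 20 were lower and 1, the lysozyme gene LysS, higher in elav-Gal4 UAS-APP flies than in elav-Gal4, with a median log2 difference of -5.60. The same counts held against UAS-APP, with a median of -4.82. In elav-Gal4 against UAS-APP, 18 of 21 were higher and 0 lower, with a median of 0.87. A list of 17 photoreceptor genes took 7.30% and 7.24% of summed FPKM in elav-Gal4 UAS-APP, against 0.468% and 0.477% in elav-Gal4 and 4.51% and 3.58% in UAS-APP. Photoreceptors are neurons of the eye, and all 17 genes were higher in elav-Gal4 UAS-APP flies than in elav-Gal4 and lower in elav-Gal4 than in UAS-APP. Of 14 tested glial genes, 10 were higher and 2 lower in elav-Gal4 UAS-APP than in elav-Gal4, among them the glial transcription factor gene repo, which rose by 2.70 (adjusted p = 2.06e-07). The glial counts were 9 higher and 5 lower with median centring. Of 13 muscle genes, 4 were higher and 4 lower than in elav-Gal4, and 2 higher and 10 lower with median centring. Of 14 fat body genes, 3 were higher and 9 lower, and 1 higher and 13 lower with median centring. Against UAS-APP, photoreceptor genes had 13 higher and 2 lower (16 and 0 with quantile normalization), glial genes 11 and 2, muscle genes 10 and 2 (6 and 3 with median centring) and fat body genes 2 and 9 (5 and 7 on the TPM scale). In elav-Gal4 against UAS-APP, muscle genes had 12 higher and 0 lower, fat body genes 7 and 6 (5 and 7 on the TPM scale), and glial genes 4 and 7. The part of these other cell types in the differences of elav, fne and Rbp9 was not tested.

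Other RNA-binding protein genes gave a reference for the family. Of 16 tested neuronal RNA-binding protein genes, 15 were higher in elav-Gal4 UAS-APP flies than in elav-Gal4, with a median log2 difference of 2.22, and the remaining gene, bru2, averaged 11.7 against 12.4 FPKM and was called lower with median centring or quantile normalization. Rbp6, a musashi family gene, rose by 3.55 (adjusted p = 4.88e-07) and Rbfox1, a splicing regulator, by 2.51 (adjusted p = 3.83e-07). Against UAS-APP all 16 were higher, with a median of 1.30. In elav-Gal4 against UAS-APP, 14 were lower and 1, bru2, higher. General RNA processing genes, which all cells use, moved less: of 17, 12 were higher and 0 lower in elav-Gal4 UAS-APP than in elav-Gal4, with a median of 0.58, and 6 higher and 6 lower with median centring. Their median against UAS-APP was 0.15, with 8 higher and 3 lower, and 6 higher and 7 lower with median centring. In elav-Gal4 against UAS-APP, 13 were lower and 0 higher, and 4 lower and 1 higher with median centring.

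Sxl and ssx, sister of Sex-lethal, are the closest fly relatives of the family by RNA recognition motifs, and Sxl is the sex-determination switch. Ssx stood at 99.9 and 102 FPKM in elav-Gal4 UAS-APP, against 13.2 and 12.4 FPKM in elav-Gal4 and 15.5 and 14.2 FPKM in UAS-APP. Sxl stood at 39.6 and 39.1 FPKM in elav-Gal4 UAS-APP, against 10.6 and 10.4 FPKM in elav-Gal4 and 17.9 and 15.2 FPKM in UAS-APP. Both were higher in elav-Gal4 UAS-APP flies than in either control, by 2.88 and 2.68 for ssx (adjusted p = 6.97e-08 and 2.13e-07) and by 1.81 and 1.21 for Sxl (adjusted p = 8.84e-07 and 1.28e-05). Between elav-Gal4 and UAS-APP the difference of ssx was -0.20 (adjusted p = 0.0412), no longer past the threshold with median centring or quantile normalization, and Sxl fell by 0.61 (adjusted p = 0.000721). The order of the groups in FPKM was the same as for the ELAV family, while the gap between the controls was smaller. For ssx that gap, -0.20, was smaller in size than the median of all tested genes, -0.27. The order of the 2 controls for ssx therefore depends on the scaling.

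Genes whose RNA is known to be processed or bound by ELAV proteins were also counted. Of 10 such genes, 2 of which are also in the list of neuronal RNA-binding proteins, all 10 were higher in elav-Gal4 UAS-APP flies than in elav-Gal4 and than in UAS-APP, with median log2 differences of 1.66 and 1.16, and 9 against UAS-APP with median centring. The transcription factor gene ewg, whose splicing Elav controls, rose by 1.82 against elav-Gal4 (adjusted p = 4.88e-07) and by 1.38 against UAS-APP (adjusted p = 4.26e-06). AGO1, an Argonaute gene, rose by 1.59 and 1.17 (adjusted p = 1.03e-06 and 9.67e-06). In elav-Gal4 against UAS-APP, 9 were lower, and 4 with median centring. These are levels of whole genes, and splice and polyadenylation choices were not analysed here.

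In Shal495 against w1118 none of the 3 genes passed the threshold. Elav stood at 11.4 and 10.9 FPKM in Shal495 against 11.66 and 11.65 FPKM in w1118. Fne stood at 19.9 and 16.6 FPKM in Shal495 against 17.3 and 18.2 FPKM in w1118. Rbp9 stood at 117 and 114 FPKM in Shal495 against 104 and 115 FPKM in w1118. The groups overlapped for fne and Rbp9, and for elav both Shal495 libraries lay just below both w1118 libraries. The limma test called 0 of the 3 members, where 2.37% of 9628 tested genes were called, 1.16% as higher and 1.2% as lower. An unadjusted limma p under 0.05 was found for 0 of the 3 members and for 1880 of the 9628 tested genes. Voom on recovered fragments also called 0 of the 3, and over all genes called 77 higher and 78 lower.

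The log2 difference was -0.06 for elav (95% interval -0.31 to 0.20, adjusted p = 0.789), 0.03 for fne (-0.28 to 0.35, adjusted p = 0.900) and 0.08 for Rbp9 (-0.16 to 0.32, adjusted p = 0.691). Smaller differences than these intervals allow were not detectable with 2 libraries a group. Of the 23 pan-neuronal genes 0 were called, also with voom, and their median log2 difference was 0.06. An unadjusted p under 0.05 was found for 5 of the 23, a share near that of all tested genes, 1880 of 9628. Summed FPKM of that list was 1744 and 1825 in Shal495 against 1821 and 1804 in w1118. Per 1000 FPKM of the list, elav stood at 6.52 and 6.0 in Shal495 against 6.40 and 6.46 in w1118, fne at 11.4 and 9.09 against 9.47 and 10.1, and Rbp9 at 67.2 and 62.3 against 56.9 and 63.9. The groups overlapped in all 3 ratios. Neuronal RNA-binding protein genes, ELAV targets, general RNA processing genes, glial genes, and Sxl and ssx likewise had 0 genes called by limma and by voom. Of these, 1 of 10 target genes and 4 of 14 glial genes had an unadjusted p under 0.05, beside the same 1880 of 9628. Photoreceptor genes had 1 called higher, Rh5 by 1.90, and 1 lower, chp. Gut genes had 3 higher and 1 lower of 18, and muscle genes 1 higher and 0 lower of 13. Fat body genes had 3 higher, Yp1, Yp2 and Yp3, and 0 lower of 11. The gut gene betaTry stood at 298 and 191 FPKM in Shal495 against 0 FPKM in both w1118 libraries. The part of these lists in the differences of the family was not tested here either.

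In the TrpA1 table the members differed little between flies with driver and transgene and flies with the transgene alone. Elav stood at 4.93 and 5.32 FPKM in elav-Gal4 UAS-TrpA1 against 4.76 and 4.98 FPKM in UAS-TrpA1, and the groups overlapped. Fne stood at 3.97 and 3.67 FPKM in elav-Gal4 UAS-TrpA1 against 4.36 and 4.70 FPKM in UAS-TrpA1. Rbp9 stood at 84.2 and 83.9 FPKM in elav-Gal4 UAS-TrpA1 against 88.0 and 86.7 FPKM in UAS-TrpA1. For fne and Rbp9 both libraries of elav-Gal4 UAS-TrpA1 lay below both of UAS-TrpA1, by small amounts. Fragments behind these values were 672 to 726 for fne and 1016 to 1099 for elav in elav-Gal4 UAS-TrpA1.

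The limma test called 0 of the 3 members, where 60.6% of 8980 tested genes were called, 16.6% higher and 43.9% lower. Below an unadjusted limma p of 0.05 there was 1 member, fne, beside 5851 of the 8980 tested genes. Voom on recovered fragments also called 1, fne, and over all genes called 1556 higher and 4375 lower. These results thus separate fne little from other genes. The log2 difference was 0.06 for elav (95% interval -0.12 to 0.25, adjusted p = 0.519), -0.20 for fne (-0.40 to -0.000397, adjusted p = 0.0763) and -0.06 for Rbp9 (-0.14 to 0.03, adjusted p = 0.211). The median of all tested genes was -0.16, and less that median the differences were 0.22 for elav, -0.04 for fne and 0.11 for Rbp9. The calls turned on the scaling. With median centring elav and Rbp9 passed as higher (0.25, adjusted p = 0.0318, and 0.13, adjusted p = 0.0187), and on the TPM scale fne and Rbp9 passed as lower (-0.27, adjusted p = 0.0314, and -0.13, adjusted p = 0.0188). Over all genes 1495 were called higher and 3944 lower, with median centring 2586 and 2042, and with quantile normalization 2325 and 2169. On the TPM scale the split was 1252 and 4629.

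The median of the pan-neuronal list was more negative than the difference of each member here. Of the 23 list genes 17 were lower in elav-Gal4 UAS-TrpA1 and 0 higher, with a median log2 difference of -0.33. Less the median of all tested genes, the list median was -0.164, against 0.22 for elav, -0.04 for fne and 0.11 for Rbp9. With median centring 9 list genes were lower and 1 higher, and with quantile normalization 10 were lower. Ank2, a neuronal ankyrin gene, fell by 1.02 (adjusted p = 5.41e-05), comt fell by 0.76 (adjusted p = 2.37e-05) and nrv3, a neuronal sodium pump subunit gene, fell by 0.72 (adjusted p = 3.46e-05). Elav had a larger (less negative) difference than all 23 list genes, Rbp9 than 22 and fne than 19. For elav that held with a pseudocount of 1 or 0.1, quantile normalization, voom, which had 20 of the list genes, and the TPM scale. Median centring shifts all genes of a comparison alike, so it cannot change this order. The TPM scale applies 1 factor per library and can change it only slightly. The largest list difference was 0.036, against 0.061 for elav with an SE of 0.077, and this gap was not tested. For Rbp9, 1 or 2 list genes lay above it under these scales, and for fne 3 or 4.

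Summed FPKM of the list was 725 and 703 in elav-Gal4 UAS-TrpA1 against 964 and 948 in UAS-TrpA1. Per 1000 FPKM of the list there were 6.80 and 7.57 FPKM of elav in elav-Gal4 UAS-TrpA1 against 4.93 and 5.25 in UAS-TrpA1, and 116 and 119 FPKM of Rbp9 against 91.2 and 91.4. Fne stood at 5.47 and 5.21 against 4.52 and 4.95. All 3 members were higher relative to the list in both libraries of elav-Gal4 UAS-TrpA1 than in either library of UAS-TrpA1, the opposite of what elav and Rbp9 showed in the APP table. No test was made on these ratios, and the sum gives most weight to the abundant list genes. Among these, nrv3 stood at 165 and 154 FPKM in elav-Gal4 UAS-TrpA1 against 269 and 258 FPKM in UAS-TrpA1. The gene nSyb stood at 119 and 113 FPKM against 112 and 114 FPKM, so the direction of the ratios can depend on the genes summed.

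Of 16 neuronal RNA-binding protein genes, 14 were lower in elav-Gal4 UAS-TrpA1, and 10 lower and 1 higher with median centring, with a median log2 difference of -0.42. The splicing factor gene mub fell by 0.58 (adjusted p = 0.000138), and pum, a translational repressor that is also counted as an ELAV target, fell by 0.62 (adjusted p = 0.000415). Ssx stood at 10.0 and 10.2 FPKM in elav-Gal4 UAS-TrpA1 against 16.6 and 15.1 FPKM in UAS-TrpA1 and fell by 0.60 (adjusted p = 0.000373). Sxl stood at 10.6 and 10.8 against 14.1 and 13.5 FPKM and fell by 0.34 (adjusted p = 0.00274), and 1 of these 2 genes stayed lower with median centring. Of the 10 ELAV target genes 7 were lower, and 3 with median centring. The general RNA processing genes had 4 higher and 4 lower of 17, and 7 higher and 1 lower with median centring.

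Other cell types moved beside these. All 13 muscle genes were lower in elav-Gal4 UAS-TrpA1, 11 with median centring, and the list took 0.206% and 0.207% of summed FPKM against 0.473% and 0.474% in UAS-TrpA1. Photoreceptor genes took 5.25% and 5.36% in elav-Gal4 UAS-TrpA1 against 3.75% and 3.75% in UAS-TrpA1, with 11 higher and 5 lower of 17. Glial genes had 11 lower and 0 higher of 14, and 7 lower and 1 higher with median centring. Gut genes had 6 higher and 12 lower of 19, and fat body genes 10 higher and 4 lower of 14. The part of these lists in the differences of the family was not tested.

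**Figure D3:**
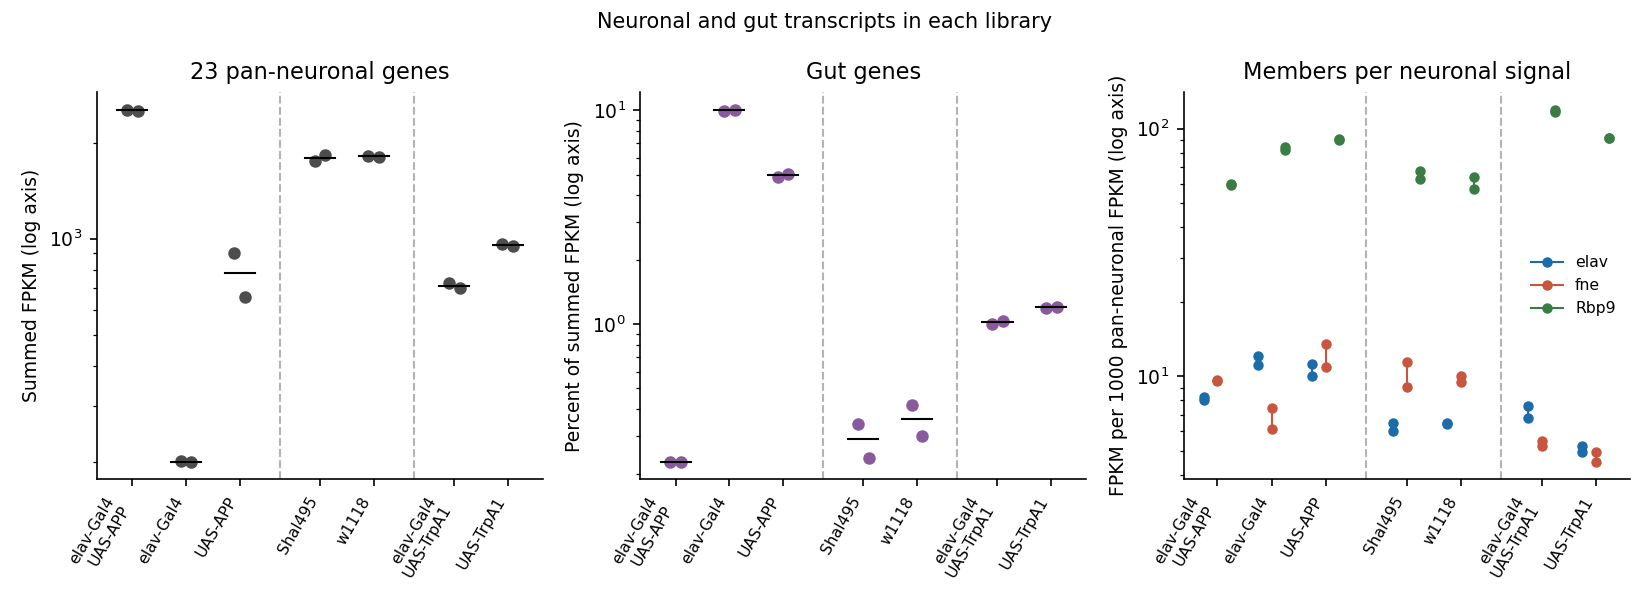
Summed FPKM of the 23 pan-neuronal genes (left), gut genes as percent of summed FPKM (centre) and FPKM of elav, fne and Rbp9 per 1000 FPKM of the pan-neuronal list (right), each on a log axis, for the 2 libraries of each group, with group means as black lines at left and centre. The elav-Gal4 libraries have the lowest pan-neuronal sum, 201 and 200.4, and the highest gut share, 9.89% and 10.1%, and Rbp9 per neuronal signal is highest in elav-Gal4 UAS-TrpA1, 116 and 119.

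The proportions of the 3 members within a library were not constant. There were 1.20 and 1.17 FPKM of fne per FPKM of elav in elav-Gal4 UAS-APP, against 0.672 and 0.508 in elav-Gal4 and 0.969 and 1.34 in UAS-APP. The elav-Gal4 libraries lay below all others of that table, and the UAS-APP libraries spanned those of elav-Gal4 UAS-APP. The ratio was 1.75 and 1.52 in Shal495 against 1.48 and 1.56 in w1118, which overlapped. It was 0.805 and 0.689 in elav-Gal4 UAS-TrpA1 against 0.916 and 0.943 in UAS-TrpA1, so fne exceeded elav in the Shal495 table and was below it in the TrpA1 table.

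The ratio of Rbp9 to elav was 7.45 and 7.18 in elav-Gal4 UAS-APP, against 7.59 and 6.83 in elav-Gal4 and 8.05 and 8.96 in UAS-APP. Rbp9 and elav thus kept nearly the same proportion in elav-Gal4 UAS-APP and elav-Gal4, whose levels of each gene differed by 8.98 and 8.83 times. The ratio was 10.3 and 10.4 in Shal495 against 8.89 and 9.89 in w1118, and 17.1 and 15.8 in elav-Gal4 UAS-TrpA1 against 18.5 and 17.4 in UAS-TrpA1. Shal495 lay above w1118 in both libraries, and elav-Gal4 UAS-TrpA1 below UAS-TrpA1 in both. Rbp9 was at its greatest excess over elav in the TrpA1 table, in both of its groups.

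**Figure D4:**
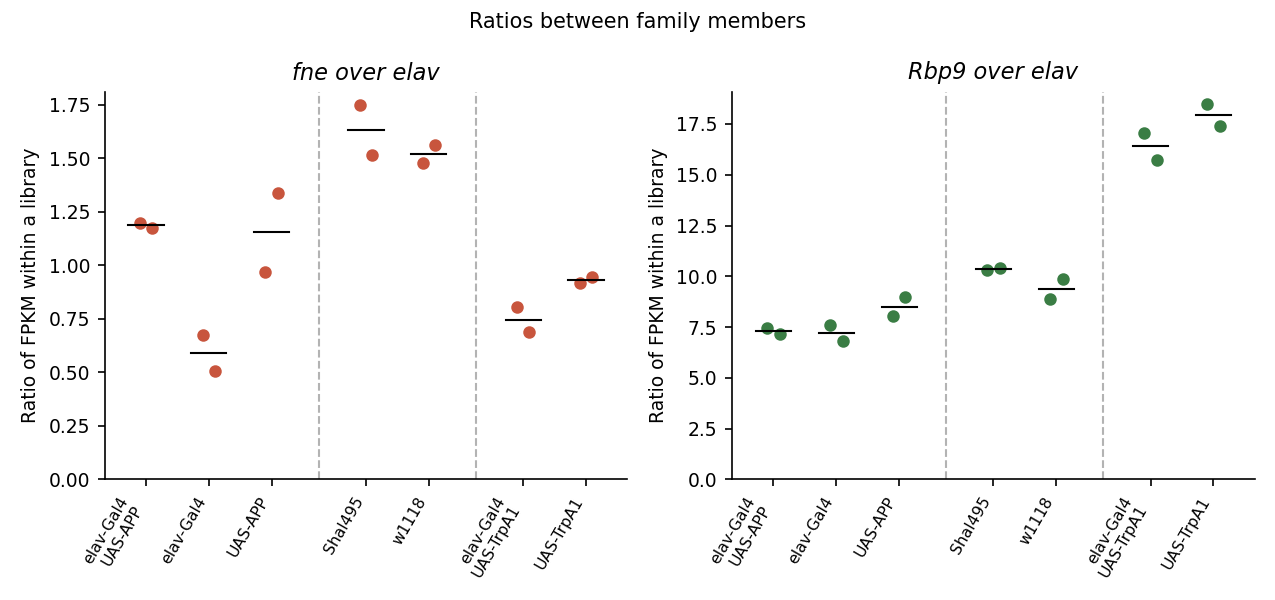
Ratio of FPKM within a library for fne over elav (left) and Rbp9 over elav (right), linear axes from 0, with points for the 2 libraries of each group and black lines for group means. Fne over elav is lowest in elav-Gal4, 0.672 and 0.508, and Rbp9 over elav is highest in the TrpA1 table, 15.8 to 18.5.

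The genes whose pattern was most like that of each member were found from the root-mean-square difference of log2(FPKM + 1), centred on the mean of each table, over the 14 libraries and among 8710 genes that passed the filter in all tables. Closest to elav were CG14868 (0.0913), ssp6 (0.0924), CG17321 (0.0938), stau (0.0992), the gene of the RNA-binding protein Staufen, and dao (0.103). Closest to fne were CG33203 (0.0746), Cdk5alpha (0.0800), the activator of the neuronal kinase Cdk5, Ggamma30A (0.0811), a G protein subunit of photoreceptors, CG44247 (0.0980) and CG9813 (0.108). Closest to Rbp9 were CG40498 (0.0717), VGlut (0.0795), the vesicular glutamate transporter of glutamatergic neurons, Eaat2 (0.0821), an amino acid transporter, igl (0.0914), a calmodulin-binding protein gene, and CG44247 (0.0946). The median over all genes was 0.654 for elav, 0.841 for fne and 0.761 for Rbp9.

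Stau, for example, stood at 54.1 and 54.6 FPKM in elav-Gal4 UAS-APP, against 8.28 and 7.38 FPKM in elav-Gal4 and 25.6 and 18.5 FPKM in UAS-APP. VGlut stood at 41.6 and 40.9 FPKM in elav-Gal4 UAS-APP, against 3.46 and 3.66 FPKM in elav-Gal4 and 18.5 and 14.2 FPKM in UAS-APP, and at 17.1 and 18.0 FPKM in elav-Gal4 UAS-TrpA1 against 16.8 FPKM in both UAS-TrpA1 libraries. Within the APP table both genes had the order of groups of the members they were chosen to resemble. Among the members themselves fne and Rbp9 were the most alike (0.127), then elav and Rbp9 (0.161) and elav and fne (0.251). Fne ranked 16th among all genes by likeness to Rbp9 and Rbp9 ranked 14th by likeness to fne. Elav ranked 44th by likeness to Rbp9 and Rbp9 ranked 74th by likeness to elav. Elav ranked 144th by likeness to fne, while fne ranked 408th by likeness to elav. Of the 100 genes nearest to elav 1 was in the pan-neuronal list, and 6 of the 100 nearest to fne and to Rbp9 were. The whole list is 23 of the 8710 genes compared. These distances are descriptions over libraries that share groups and tables.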

How the data were processed

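The authors deposited FPKM in 3 tables, with 14767 genes for APP, 14791 for Shal495 and 13312 for TrpA1. Per the labels, NEBNext Ultra libraries of poly(A) RNA were sequenced from both ends. The submitters' processing notes name BDGP6, Bowtie2 2.2.3, HISAT2 2.1.0 and TopHat2 without roles, and do not say what computed FPKM.

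Fragments and library totals were recovered by scaling the product of FPKM and exon length until it was whole within 0.02, as it was in every library for 97.7%, 97.7% and 97.6% of genes of the APP, Shal495 and TrpA1 tables. Intervals and floors (3 counts) cover counting error only, since PCR duplicates are not independent molecules. Genes reaching 1 FPKM in 2 or more libraries entered the test, which was run on log2(FPKM + 1) by limma 3.58.1 in R 4.3.3 (empirical Bayes with a mean-variance trend, two-sided, Benjamini-Hochberg over all tested genes, threshold 0.05), within each table, with the 3 APP groups in 1 fit. SE is the moderated standard error. Where the median log2 difference of all genes exceeded 0.1 in size, differences are also given less that median. The procedure was tested on simulated data.

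The members and the 10 gene lists (150 entries from general knowledge, 1 unmatched) were chosen with earlier results of these data known. Genes named are the members, Sxl and ssx, and, by smallest adjusted p, up to 6 pan-neuronal genes and 4 of each other list. Also named are genes overlapping a member, the 5 genes most alike to each member and, of the flanking genes, hec, svr and lilli. The lone exceptions bru2 and LysS, and Yp2, were named after their values were seen. Each result was repeated with median centring, quantile normalization, a pseudocount of 0.1, no filter, a minimum of 5 FPKM, voom on recovered fragments (at least 10 in 2 libraries), fits of only the 2 groups compared, a replicate block, leaving out each library, and the TPM scale, chosen after seeing the data. Replicate numbers did not pair the libraries, since deviations correlated at -0.033 to 0.018 between groups. Python 3.11.15, pandas 2.3.3 and numpy 2.4.6 handled the tables.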

Additional observations from a re-analysis of the deposited data

Results flagged for a closer look

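The difference between flies with driver and transgene and flies with the transgene alone went opposite ways in the APP and TrpA1 tables for 2 members, in every library of each group. Fne differed by 1.29 on the log2 scale between elav-Gal4 UAS-APP and UAS-APP, and by -0.20 between elav-Gal4 UAS-TrpA1 and UAS-TrpA1. Rbp9 differed by 1.09 between elav-Gal4 UAS-APP and UAS-APP, and by -0.0555 between elav-Gal4 UAS-TrpA1 and UAS-TrpA1. The difference between the tables was not tested, because they share no group. How many of all tested genes separated by library in both tables, or changed direction between them, was not counted. Calls were common, at 76.7% of tested genes in the APP comparison and 60.6% in the TrpA1 comparison. The median of all tested genes also changed sign, from 0.17 to -0.16. The opposite directions alone thus do not set these 2 members apart from other genes. The TrpA1 values of fne and Rbp9 did not pass the threshold on the log2(FPKM + 1) scale used throughout. The TrpA1 direction depends on the scaling. With quantile normalization fne was 0.0129 and Rbp9 0.0313, and with median centring Rbp9 was 0.13 and passed as higher (adjusted p = 0.0187), so that these did not go the opposite way. Voom called fne lower (adjusted p = 0.00184), and the TPM scale called fne and Rbp9 lower (adjusted p = 0.0314 and 0.0188).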

How the results depend on the processing

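The differences of elav, fne and Rbp9 in the 3 comparisons of the APP table kept their direction and stayed past the threshold under all 15 alternatives each; the lowest and highest were 2.12 and 3.41 for elav, 2.86 and 4.21 for fne and 2.53 and 3.71 for Rbp9 in elav-Gal4 UAS-APP against elav-Gal4. In Shal495 against w1118 elav was 0.0015 with median centring and 0.0141 with quantile normalization, and fne ran from -0.0888 to 0.157 when each library was left out in turn, with no call in any of these. In elav-Gal4 UAS-TrpA1 against UAS-TrpA1, median centring gave 0.25 for elav (adjusted p = 0.0318) and 0.13 for Rbp9 (adjusted p = 0.0187). Quantile normalization gave 0.26 for elav (adjusted p = 0.0266), 0.0129 for fne and 0.0313 for Rbp9, both short of the threshold. Voom gave -0.25 for fne (adjusted p = 0.00184), and the TPM scale -0.27 for fne and -0.13 for Rbp9. Over all alternatives the adjusted p ran from 0.0266 to 0.985 for elav, from 0.00184 to 0.925 for fne and from 0.0187 to 0.479 for Rbp9. Pan-neuronal genes called lower there numbered 9 with median centring, which also called 1 higher, and 10 with quantile normalization. Genes called in Shal495 against w1118 numbered 228, but 24 with no filter, 96 with the replicate block and 9 to 130 when 1 library was left out, the fewest without Shal495 replicate 2. With the replicate block, the members kept their calls in all 5 comparisons, for example fne at 1.29 (adjusted p = 2.43e-05) in elav-Gal4 UAS-APP against UAS-APP. The cause of these changes was not tested. The filter at 5 FPKM removed elav and fne from the TrpA1 table, and where 1 library of a group was left out the other was assumed to vary like the rest. Depth limits fne most in elav-Gal4, with 274 and 229 fragments, and 2 libraries a group limit every test.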

Other observations

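Genes that flank the members on the chromosome were also measured. Next to fne on X, hec, a gene of a hormone receptor family, stood at 4.92 and 4.38 FPKM in elav-Gal4 UAS-APP, against 0.337 and 0.35 FPKM in elav-Gal4 and 0.80 and 0.629 FPKM in UAS-APP. Next to elav on X, svr, a carboxypeptidase gene, stood at 46.3 and 45.1 FPKM in elav-Gal4 UAS-APP, against 21.6 and 21.8 FPKM in elav-Gal4 and 27.6 and 23.4 FPKM in UAS-APP. Next to Rbp9 on 2L, lilli, a transcription elongation factor gene, stood at 14.9 and 14.3 FPKM in elav-Gal4 UAS-APP, against 6.89 and 7.07 FPKM in elav-Gal4 and 7.81 and 6.75 FPKM in UAS-APP. Ts, whose exons overlap those of Rbp9 on the other strand, stood at 1.15 and 1.30 FPKM in elav-Gal4 UAS-APP, against 2.12 and 1.85 FPKM in elav-Gal4 and 0.456 and 0.422 FPKM in UAS-APP. Within the APP table, hec, svr and lilli had their highest libraries in elav-Gal4 UAS-APP, and Ts had its highest in elav-Gal4. Outside that table, svr reached 47.2 and 48.0 FPKM in Shal495, against 44.5 and 43.6 FPKM in w1118, and hec 4.40 and 4.84 FPKM in Shal495, against 5.29 and 3.42 FPKM in w1118.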
